A study of Arabidopsis thaliana with 9 samples.

Results

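The genes described here are 38 Arabidopsis thaliana loci of the phosphate starvation response and of phosphate transport, chosen by locus identifier from the 32823 genes in the files. The choice was made with earlier results of these data known. Counts of these genes set beside all genes are therefore description and not a test. All 38 were present. They comprise 7 sensors and transcription regulators, 2 non-coding RNAs, 2 ubiquitination genes, 9 genes of phosphate uptake, 2 of phosphate export, 9 of membrane lipid remodelling and 7 acid phosphatases, other phosphatases or ribonucleases. The data were mRNA-seq values of whole seedlings at 2 weeks of age, grown in 16 h light at 22 °C and 8 h dark at 18 °C, with 3 libraries for each of 3 genotypes. These were the mutant cyp71-3, the mutant se-1 and the wild-type accession Col-0. CYP71 encodes a WD40-repeat protein of the cyclophilin class, enzymes that isomerise peptide bonds before proline. SE, also called SERRATE, is a zinc-finger partner of the enzymes that cut microRNA (miRNA) precursors. The labels give neither the molecular lesion of either allele nor the phosphate supply of the seedlings, and they do not say whether the libraries of a genotype came from separate cultures, so the p-values reflect only how far these libraries scatter.

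In plants, the MYB-type factor PHR1 activates phosphate starvation genes, many of them through an upstream element called P1BS, and SPX proteins hold PHR1 back when inositol pyrophosphates report that phosphate is plentiful. Starved plants make miR399, which lowers the ubiquitin conjugase PHO2, and miR827, which lowers the ubiquitin ligase NLA; both enzymes remove phosphate transporters from membranes. IPS1 and AT4 are non-coding transcripts that bind miR399 without being cut and so shield PHO2, a mechanism known as target mimicry. Starved cells also replace membrane phospholipids with sulfolipids and galactolipids and release acid phosphatases and ribonucleases.

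The RNA pairings of this circuit are shown because they mark where members pair with miR399 or miR827. The letters below were read from the RefSeq TAIR10.1 sequence. The mature miR399a, b, c-3p, d, e and f share the seed GCCAAAG, which is base 2 to base 8 and is set in capitals, and miR827 has another.
miR399a: uGCCAAAGgagauuugcccug
miR399b: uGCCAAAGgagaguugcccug
miR399f: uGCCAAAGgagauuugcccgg
miR827: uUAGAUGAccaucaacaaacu

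Sites for these miRNAs were searched in the transcripts of PHO2, NLA, IPS1 and AT4. Capitals mark the bases that form Watson-Crick pairs with miR399f in PHO2, with miR827 in NLA and with miR399b in IPS1 and AT4. PHO2 held 5 miR399 sites, all in its annotated 5′ UTR and all ending in the complement of the seed, of which the third is shown. The NLA site also lies in the 5′ UTR. In IPS1 and AT4 the pairing is interrupted by a bulge of 3 bases at the centre. RefSeq annotates both of these loci as protein-coding, with the sites in the coding part, although they are known as non-coding RNAs.
PHO2 (chr2:14281884-14281904, minus strand): uuGGGCAAAUCUCCUUUGGCA
NLA (chr1:635401-635421, plus strand): uGUUUGUUGAUGGUCAUCUAA
IPS1 (chr3:3051224-3051247, plus strand): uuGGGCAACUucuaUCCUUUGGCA
AT4 (chr5:895149-895172, plus strand): uuGGGCAACUucgaUCCUUUGGCA

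Values are FPKM, the deposited fragment counts scaled to transcript length and library size. Fold changes and SE were computed as log2(FPKM + 1), so low genes appear to change less than they do, and come from limma over all 9 libraries, with Benjamini-Hochberg adjustment over the 19180 genes whose mean FPKM was at least 1. A gene is called when its adjusted p is under 0.05. Of the 38 genes, 31 passed this filter. PHT1;2, PHT1;3, PHT1;5, PHT1;7, PHT1;8, PHT1;9 and NPC5 did not and are described by their values, and PHT1;2 was also fitted without the filter. SPX3 passed with a mean of 1.89 FPKM that rests on its level in cyp71-3. Both mutants were compared with the same Col-0 libraries, so the 2 sets of fold changes are not independent of each other, and differences between the mutants were tested directly.

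The FPKM sums of the libraries lay between 825338 and 937136, and the lowest steps between values implied that the deepest library held 1.53 times as many fragments as the shallowest. Chloroplast-encoded genes made up 0.0313% to 3.44% of the FPKM sum, with the highest share in cyp71-3 replicate 1. CYP71 was at 3.70, 4.41 and 4.16 FPKM in cyp71-3, against 16.9, 17.6 and 19.1 FPKM in Col-0, a log2 fold change of -1.89 ± 0.07 (limma adjusted p = 1.63e-09). SE was at 29.0, 27.2 and 25.5 FPKM in se-1, against 30.7, 33.3 and 31.1 FPKM in Col-0, a log2 fold change of -0.21 ± 0.05 (limma adjusted p = 0.0052).

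The first comparison asks how phosphate genes differ in seedlings of the cyp71-3 mutant. In cyp71-3, 22 of the 31 tested genes were called higher than in Col-0, 6 were called lower and 3 were not called. Of all genes tested, 63.3% were called, 30.6% higher and 32.7% lower. In 27 of the 31 genes the libraries of the 2 genotypes did not overlap, as in 70.1% of all genes tested. The median log2 fold change of the 31 genes was 0.67, beside -0.01 for all genes tested. With a log2 fold change of at least 0.8, 10 of the 31 were higher and 0 lower, beside 5.59% and 5.64% of all genes tested. The 10 were PS2, AT4, MGD3, SPX3, PLDP2, IPS1, PEPC1, SPX1, PHO1;H1 and MGD2, with the lowest value of the 31 at -0.71 in WRKY75. The 10 include sensors, target mimics, an exporter homologue, lipid enzymes and phosphatases. Among them, SPX3 passed the filter only through its cyp71-3 libraries.

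The second comparison asks the same of se-1, a mutant known for impaired miRNA processing. There 12 of the 31 genes were called higher than in Col-0, 9 lower and 10 were not called, while 50.2% of all genes tested were called, 25.1% higher and 25.1% lower. The libraries did not overlap in 22 of the 31 genes, beside 56.7% of all genes tested. The median log2 fold change was 0.01 for the 31 genes and 0.00 for all genes tested. NLA, SRG3 and RNS1 were higher by at least 0.8 and IPS1 lower by at least 0.8, beside 3.56% and 2.51% of all genes tested.

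Directly between the mutants, 17 of the 31 genes were called higher in cyp71-3 than in se-1, 7 lower and 7 were not called. Of all genes tested, 62.2% were called, 30% higher and 32.2% lower. Libraries of the mutants did not overlap in 24 of the 31 genes, beside 66.2% of all genes tested. The median log2 fold change was 0.23, beside 0.00 for all genes tested. The count of lower genes was 4 without cyp71-3 replicate 3 and 4 without se-1 replicate 3. With a log2 fold change of at least 0.8, 8 were higher in cyp71-3 (IPS1, AT4, PS2, SPX3, PEPC1, MGD2, MGD3 and PLDP2) and 0 lower, NLA being lowest at -0.79, beside 5.16% and 6.42% of all genes tested. SPX3 is counted in the 8 although it passed the filter only through its cyp71-3 libraries.

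**Figure D1:**
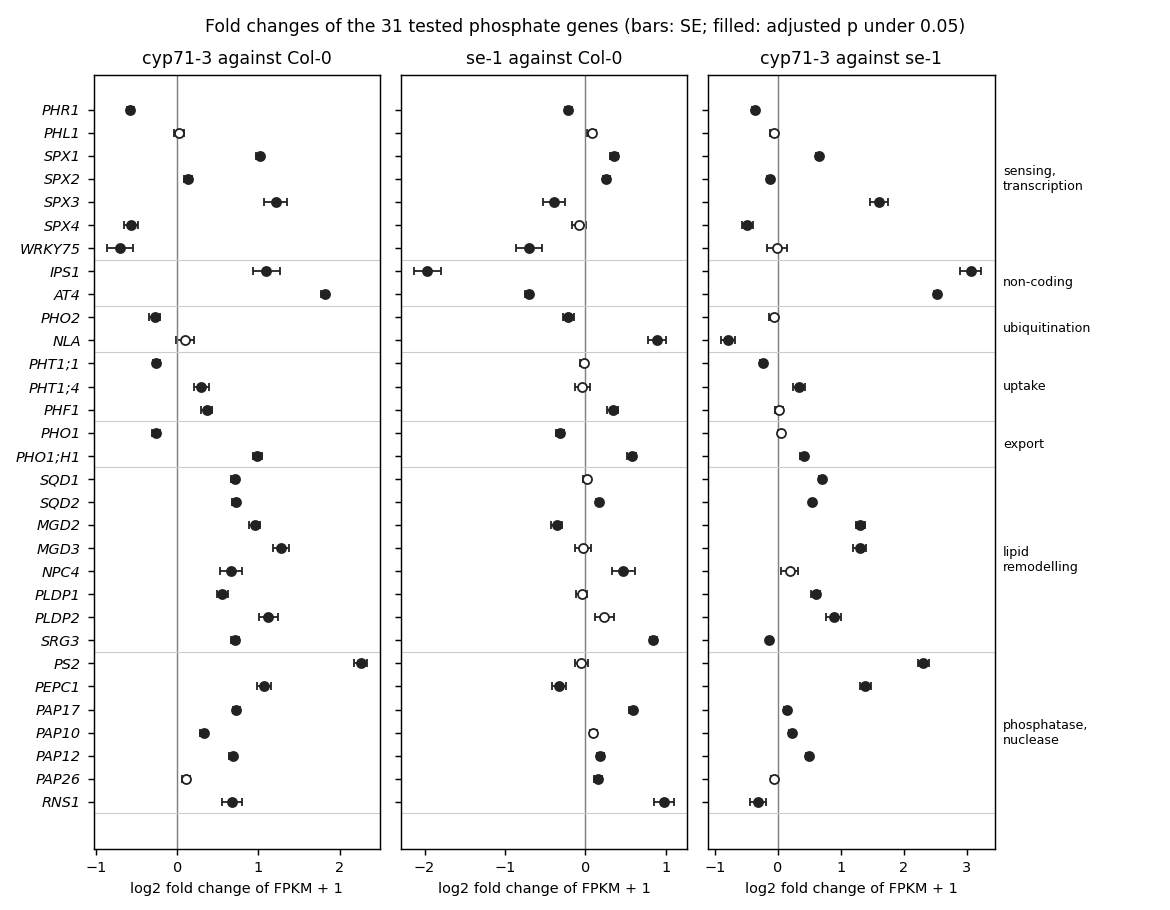
Log2 fold changes of FPKM + 1 for the 31 tested phosphate genes, grouped by role from top to bottom, in cyp71-3 against Col-0 (left), se-1 against Col-0 (middle) and cyp71-3 against se-1 (right). Bars are the SE and filled points have an adjusted p under 0.05; all 8 tested lipid genes lie right of 0 in the left panel, while IPS1 and AT4 lie right of 0 in the left panel and left of 0 in the middle one.

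Because whole seedlings were sequenced, fewer cells of a type and less RNA per cell cannot be told apart. Organ markers were therefore set beside the phosphate genes, many of which are known from roots. Root markers summed to 130.1 to 137.8 FPKM in cyp71-3, 167.7 to 177.1 FPKM in se-1 and 139.7 to 148.2 FPKM in Col-0. Of 24 listed root markers 21 were tested, and 7 were higher and 11 lower in cyp71-3, and 12 higher and 3 lower in se-1, than in Col-0. Of all genes tested, 30.6% were higher and 32.7% lower in cyp71-3, and 25.1% higher and 25.1% lower in se-1. The root hair marker PRP3 was higher in each mutant, at 13.5 FPKM in cyp71-3, 17.0 FPKM in se-1 and 6.13 FPKM in Col-0. The endodermal marker CASP1 was lower in cyp71-3 and higher in se-1, at 10.4 FPKM in cyp71-3, 22.1 FPKM in se-1 and 18.4 FPKM in Col-0. Of 12 leaf markers, 0 were higher and 9 lower in cyp71-3, and 0 higher and 10 lower in se-1, with highest log2 fold changes of 0.02 and 0.08 by limma. No defining marker of either organ was at 0 in every library, and the part of organ makeup in the results was not tested.

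Among the regulators, PHR1 fell in both mutants. PHR1 (AT4G28610, chromosome 4) was at 26.6, 26.9 and 26.5 FPKM in cyp71-3, at 35.7, 32.7 and 35.5 FPKM in se-1 and at 40.4, 40.7 and 39.6 FPKM in Col-0. The 3 genotypes did not overlap, with cyp71-3 lowest and Col-0 highest. The log2 fold change was -0.58 ± 0.04 in cyp71-3 (limma adjusted p = 4.81e-07) and -0.21 ± 0.04 in se-1 (limma adjusted p = 0.00179), and cyp71-3 lay below se-1 by a log2 fold change of -0.36 ± 0.04 (limma adjusted p = 2.18e-05). PHR1 overlaps 59 bases of a gene on the opposite strand, AT4G28600, which was at 13.1, 12.9 and 13.1 FPKM in cyp71-3, against 12.2, 11.8 and 12.1 FPKM in Col-0. PHL1 (AT5G29000), a close relative that acts with PHR1, was at 8.13 ± 0.17 FPKM in cyp71-3, 8.50 ± 0.28 FPKM in se-1 and 8.01 ± 0.35 FPKM in Col-0 (SD, n = 3 each). It was called in none of the 3 comparisons, and its log2 fold change in cyp71-3 against Col-0 had a 95% interval of -0.11 to 0.15.

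The SPX genes encode sensors that bind inositol pyrophosphates, and most are themselves induced by starvation. SPX1 (AT5G20150) was at 112, 113 and 118 FPKM in cyp71-3, at 68.2, 70.3 and 77.3 FPKM in se-1 and at 54.8, 56.3 and 57.0 FPKM in Col-0. Every cyp71-3 library exceeded every se-1 library, and every se-1 library exceeded every Col-0 library. The rise was 1.01 ± 0.05 in cyp71-3 (limma adjusted p = 1.01e-08) and 0.35 ± 0.05 in se-1 (limma adjusted p = 8.39e-05), and cyp71-3 lay 0.66 ± 0.05 above se-1 (limma adjusted p = 3.26e-07), all as log2 fold changes.

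SPX3 (AT2G45130), the lowest of the 4 SPX genes, was at 4.15, 3.63 and 3.99 FPKM in cyp71-3, at 0.850, 0.310 and 0.740 FPKM in se-1 and at 1.04, 1.28 and 1.06 FPKM in Col-0. Its log2 fold change in cyp71-3 was 1.21 ± 0.14 (limma adjusted p = 1.62e-05). SPX3 passed the filter only through its cyp71-3 libraries, so its calls in comparisons with that mutant are given as description and not as support. In se-1 its log2 fold change was -0.39 ± 0.14 (limma adjusted p = 0.0349). That call was lost without se-1 replicate 2 (-0.24, adjusted p = 0.125) and without Col-0 replicate 1, 2 or 3 (adjusted p = 0.0533, 0.105 and 0.0601). The direct difference between cyp71-3 and se-1 was 1.61 ± 0.14 (limma adjusted p = 1.73e-06). With a pseudocount of 0.1 in place of 1, the log2 fold change of SPX3 was -0.83 in se-1 against Col-0 and 2.54 between the mutants.

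SPX4 and WRKY75 went the other way. SPX4 (AT5G15330), whose protein is known to hold PHR proteins in the cytoplasm, averaged 7.0 ± 1.05 FPKM in cyp71-3, 10.2 ± 0.35 FPKM in se-1 and 10.8 ± 0.63 FPKM in Col-0 (SD, n = 3 each). Its log2 fold change in cyp71-3 was -0.57 ± 0.09 (limma adjusted p = 0.000152), and it was not called in se-1. WRKY75 (AT5G13080), a transcription factor induced by starvation, averaged 2.25 ± 0.45 FPKM in cyp71-3, 2.25 ± 0.07 FPKM in se-1 and 4.39 ± 1.21 FPKM in Col-0. It was lower by 0.71 in cyp71-3 and by 0.70 in se-1 on the log2 scale (limma adjusted p = 0.00232 and 0.00349). SPX2 (AT2G26660) averaged 32.0 ± 0.64 FPKM in cyp71-3, 35.0 ± 2.28 FPKM in se-1 and 29.0 ± 0.05 FPKM in Col-0, and was called higher in each mutant. In cyp71-3 the SPX2 call (log2 fold change 0.13) was lost without cyp71-3 replicate 1 or 2 (adjusted p = 0.093 and 0.071) and without Col-0 replicate 1, 2 or 3 (adjusted p = 0.067, 0.0671 and 0.0715).

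The target mimics separated the mutants most. IPS1 (AT3G09922) was at 16.1, 18.3 and 15.8 FPKM in cyp71-3, at 1.19, 0.700 and 1.55 FPKM in se-1 and at 9.77, 6.07 and 6.43 FPKM in Col-0. AT4 (AT5G03545) was at 75.5, 78.1 and 78.8 FPKM in cyp71-3, at 13.0, 12.6 and 12.3 FPKM in se-1 and at 20.5, 21.9 and 21.4 FPKM in Col-0. For both RNAs every cyp71-3 library lay above, and every se-1 library below, every Col-0 library. IPS1 rose by 1.10 ± 0.17 in cyp71-3 (limma adjusted p = 0.000169) and fell by 1.97 in se-1 (SE 0.17, limma adjusted p = 2.91e-06) on the log2 scale. AT4 rose by 1.82 ± 0.04 in cyp71-3 (limma adjusted p = 6.81e-11) and fell by 0.71 in se-1 (SE 0.04, limma adjusted p = 1.8e-07). The log2 difference between cyp71-3 and se-1 was 3.06 ± 0.17 for IPS1 (limma adjusted p = 4.51e-08) and 2.52 ± 0.04 for AT4 (limma adjusted p = 4.59e-12).

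**Figure D2:**
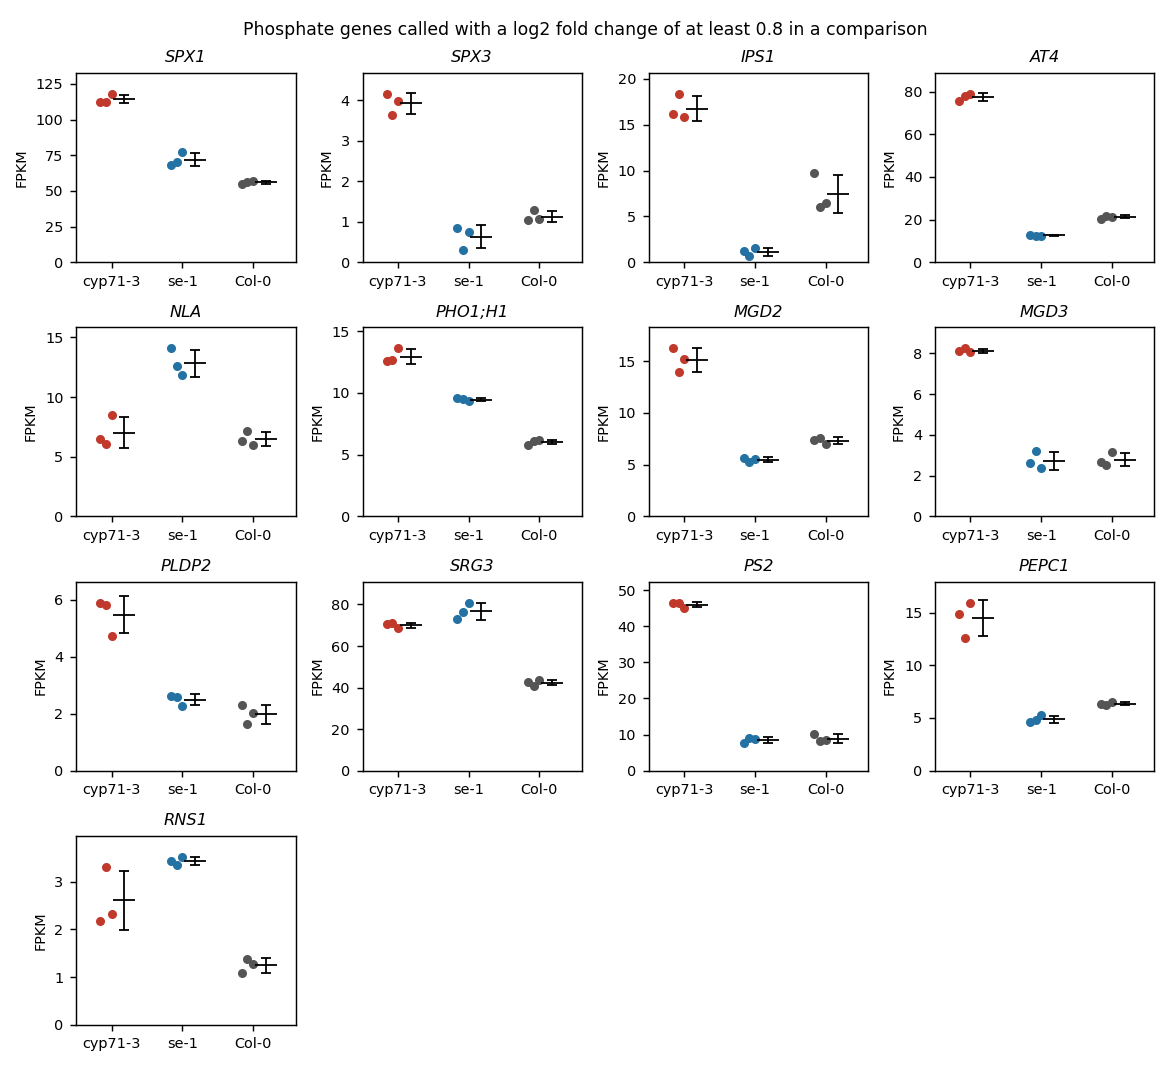
FPKM in each library (points) of the 13 phosphate genes called with an absolute log2 fold change of at least 0.8 in a comparison, for cyp71-3, se-1 and Col-0 from left to right, with the mean and SD of 3 libraries beside them. In PS2, MGD3 and AT4 the cyp71-3 libraries stand far above both other genotypes, while in NLA and RNS1 the se-1 libraries are the highest.

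PHO2 (AT2G33770), the ubiquitin conjugase that carries the miR399 sites shown above, was at 59.2, 62.5 and 60.5 FPKM in cyp71-3, at 71.5, 62.8 and 57.2 FPKM in se-1 and at 71.0, 76.4 and 74.4 FPKM in Col-0. The cyp71-3 libraries all lay below Col-0, whereas se-1 replicate 1 reached into the Col-0 range. The log2 fold change was -0.28 ± 0.07 in cyp71-3 (limma adjusted p = 0.0035) and -0.21 ± 0.07 in se-1 (limma adjusted p = 0.0201). The se-1 call was lost without se-1 replicate 2 or 3 (adjusted p = 0.0563 and 0.0645) and without Col-0 replicate 2 or 3 (adjusted p = 0.0694 and 0.0551). PHO2 was not called between the mutants, where the 95% interval of the log2 difference was -0.21 to 0.08. All 6 MIR399 precursor genes were listed at 0 in every library, so their transcripts were not measured here.

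NLA (AT1G02860), the ubiquitin ligase under miR827, was at 6.52, 6.08 and 8.50 FPKM in cyp71-3, at 14.1, 12.6 and 11.8 FPKM in se-1 and at 6.32, 7.13 and 6.0 FPKM in Col-0. All 3 se-1 libraries exceeded all others, while cyp71-3 and Col-0 overlapped. It rose by 0.89 ± 0.11 on the log2 scale in se-1 (limma adjusted p = 4.89e-05), was not called in cyp71-3 (95% interval -0.15 to 0.34) and was lower in cyp71-3 than in se-1 by a log2 fold change of -0.79 ± 0.11 (limma adjusted p = 7.55e-05). The precursor gene MIR827, of 177 bases, was listed at 0 in all cyp71-3 and Col-0 libraries and in se-1 replicate 1, and at 33.9 and 25.7 FPKM in se-1 replicates 2 and 3. The genes on the opposite strand that overlap NLA were AT1G02870, over 49 bases and at 40.2, 48.3 and 45.6 FPKM in se-1 against 43.2, 41.2 and 43.1 FPKM in Col-0, and AT1G04147, listed at 0 throughout.

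Phosphate uptake genes changed little or were low. PHT1;1 (AT5G43350), a high-affinity transporter of the root surface, averaged 30.8 ± 1.13 FPKM in cyp71-3, 36.4 ± 0.71 FPKM in se-1 and 37.0 ± 1.28 FPKM in Col-0, and was called lower in cyp71-3 with a log2 fold change of -0.26 ± 0.04 (limma adjusted p = 0.00033). PHT1;4 (AT2G38940) averaged 13.8 ± 1.97 FPKM in cyp71-3, 10.7 ± 0.30 FPKM in se-1 and 11 ± 0.91 FPKM in Col-0. Its cyp71-3 libraries touched the Col-0 range, and its call in cyp71-3 (0.30 ± 0.09, limma adjusted p = 0.0163) was lost without cyp71-3 replicate 1 or 2 (adjusted p = 0.0621 and 0.074) and without Col-0 replicate 1 (adjusted p = 0.0691). PHF1 (AT3G52190), which lets PHT1 transporters leave the endoplasmic reticulum, averaged 16.4 ± 0.52 FPKM in cyp71-3, 16.1 ± 0.54 FPKM in se-1 and 12.6 ± 1.24 FPKM in Col-0, with log2 fold changes of 0.36 and 0.34 against Col-0 (limma adjusted p = 0.000649 and 0.00149).

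PHT1;2 (AT5G43370) stood out among the transporters under the filter. It was at 1.10, 1.41 and 1.17 FPKM in cyp71-3, at 0.200, 0.0800 and 0.10 FPKM in se-1 and at 0.190, 0.170 and 0.25 FPKM in Col-0, and the cyp71-3 libraries did not overlap the others. With no filter its log2 fold change in cyp71-3 was 0.89 ± 0.07 against Col-0 (limma adjusted p = 7.24e-06). The transcripts of PHT1;1 and PHT1;2 were 97.7% identical over 1577 aligned bases, and those of PHT1;1 and PHT1;3 90.2% over 1558 bases, so the division of fragments among the 3 neighbours is uncertain. PHT1;5 was at 0.180 to 0.980 FPKM over the 9 libraries, PHT1;9 at 0.0400 to 0.330 FPKM, and PHT1;3, PHT1;7 and PHT1;8 at no more than 0.10 FPKM.

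The exporters of the PHO1 family, which load phosphate into the xylem, differed from each other. PHO1 (AT3G23430) was at 43.4, 42.8 and 42.1 FPKM in cyp71-3, at 42.1, 43.1 and 38.4 FPKM in se-1 and at 50.6, 51.8 and 52.3 FPKM in Col-0. Both mutants lay below Col-0 without overlap, with log2 fold changes of -0.26 ± 0.05 in cyp71-3 (limma adjusted p = 0.000389) and -0.32 ± 0.05 in se-1 (limma adjusted p = 0.000155). PHO1;H1 (AT1G68740), a starvation-induced homologue, was at 12.6, 12.7 and 13.6 FPKM in cyp71-3, at 9.55, 9.47 and 9.36 FPKM in se-1 and at 5.81, 6.10 and 6.18 FPKM in Col-0. It rose by 0.99 ± 0.06 in cyp71-3 (limma adjusted p = 6.5e-08) and by 0.57 ± 0.06 in se-1 (limma adjusted p = 9.37e-06), and cyp71-3 exceeded se-1 by 0.41 ± 0.06 on the log2 scale (limma adjusted p = 8.07e-05).

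The chosen genes of lipid remodelling moved together in cyp71-3. All 8 that were tested were called higher than in Col-0, with log2 fold changes of 0.56 to 1.27 and a median of 0.71, and in each the cyp71-3 and Col-0 libraries did not overlap; of all genes tested, 30.6% were called higher and 70.1% did not overlap. In se-1, 3 of the 8 were called higher, 1 lower and 4 were not called, beside 25.1% higher and 25.1% lower of all genes tested. Lipid genes listed outside this group did not move together in cyp71-3. Of the 9 tested, 3 were called higher, 3 lower and 3 not called, with a median log2 fold change of 0.08. Of all genes tested, 32.7% were called lower. MGD1, DGD1 and PAH1 were lower (-0.45, -0.33 and -0.26), and GDPD6, GDPD2 and NPC3 were higher (1.88, 0.36 and 0.25). The sulfolipid enzymes SQD1 (AT4G33030) and SQD2 (AT5G01220) were the most abundant in cyp71-3. SQD1 averaged 123 ± 3.85 FPKM in cyp71-3, 75.8 ± 3.01 FPKM in se-1 and 75.0 ± 2.67 FPKM in Col-0, and SQD2 averaged 96.2 ± 1.20 FPKM in cyp71-3, 65.5 ± 3.48 FPKM in se-1 and 58.1 ± 1.39 FPKM in Col-0.

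MGD2 and MGD3 make galactolipid at the outer plastid envelope and are the starvation-induced forms of monogalactosyldiacylglycerol synthase. MGD3 (AT2G11810) was at 8.12, 8.25 and 8.06 FPKM in cyp71-3, at 2.62, 3.19 and 2.36 FPKM in se-1 and at 2.69, 2.52 and 3.16 FPKM in Col-0. MGD2 (AT5G20410) was at 16.2, 13.9 and 15.2 FPKM in cyp71-3, at 5.67, 5.25 and 5.52 FPKM in se-1 and at 7.40, 7.58 and 6.95 FPKM in Col-0. In cyp71-3 the log2 fold change was 1.27 ± 0.10 for MGD3 (limma adjusted p = 6.7e-07) and 0.95 ± 0.07 for MGD2 (limma adjusted p = 3.61e-07). In se-1 MGD3 was not called and MGD2 fell by 0.36 (SE 0.07, limma adjusted p = 0.00122).

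Other members of the group break down phospholipids. PLDP2 (AT3G05630), a phospholipase D of the zeta class, was at 5.90, 5.80 and 4.72 FPKM in cyp71-3, at 2.61, 2.6 and 2.27 FPKM in se-1 and at 2.30, 1.62 and 2.01 FPKM in Col-0, a log2 fold change in cyp71-3 of 1.12 ± 0.11 (limma adjusted p = 5.59e-06). Its relative PLDP1 (AT3G16785) averaged 11.4 ± 0.61 FPKM in cyp71-3, 7.14 ± 0.60 FPKM in se-1 and 7.41 ± 0.33 FPKM in Col-0. NPC4 (AT3G03530), a phospholipase C, averaged 3.77 ± 0.19 FPKM in cyp71-3, 3.21 ± 0.63 FPKM in se-1 and 2.04 ± 0.49 FPKM in Col-0. The NPC4 call in se-1 (0.47 ± 0.14, limma adjusted p = 0.0148) was lost without se-1 replicate 3 or Col-0 replicate 1 (adjusted p = 0.0613 and 0.0582). NPC5, 87.3% identical to NPC4 over 1547 bases, was at 0.0300 FPKM in se-1 replicate 3 and listed at 0 in the other libraries.

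SRG3 (AT3G02040), a glycerophosphodiester phosphodiesterase, was at 70.4, 70.9 and 68.5 FPKM in cyp71-3, at 72.9, 76.3 and 80.9 FPKM in se-1 and at 42.6, 40.9 and 43.6 FPKM in Col-0. Both mutants lay above Col-0 without overlap, with log2 fold changes of 0.71 ± 0.04 in cyp71-3 (limma adjusted p = 1.04e-07) and 0.84 ± 0.04 in se-1 (limma adjusted p = 5.81e-08). It was lower in cyp71-3 than in se-1 by -0.13 (limma adjusted p = 0.0229), a call lost without cyp71-3 replicate 3 or se-1 replicate 3 (adjusted p = 0.0786 and 0.0738). SRG3 shares 681 bases with AT3G02030 on the opposite strand, which was at 5.76, 5.52 and 4.73 FPKM in cyp71-3, at 2.36, 2.25 and 2.66 FPKM in se-1 and at 3.26, 3.03 and 3.22 FPKM in Col-0.

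Phosphatases included the member with the largest change in cyp71-3. PS2 (AT1G73010), a pyrophosphate-specific phosphatase of the starvation response, was at 46.5, 46.6 and 45.1 FPKM in cyp71-3, at 7.67, 9.15 and 8.68 FPKM in se-1 and at 10.2, 8.09 and 8.36 FPKM in Col-0. The cyp71-3 libraries stood apart, and those of se-1 and Col-0 overlapped. The log2 fold change was 2.26 ± 0.08 in cyp71-3 (limma adjusted p = 1.55e-09), and in se-1 it was not called, with a 95% interval of -0.24 to 0.13. PEPC1 (AT1G17710), a related phosphoethanolamine and phosphocholine phosphatase, was at 14.9, 12.6 and 16.0 FPKM in cyp71-3, at 4.58, 4.82 and 5.25 FPKM in se-1 and at 6.37, 6.23 and 6.52 FPKM in Col-0. It rose by 1.07 ± 0.08 in cyp71-3 (limma adjusted p = 7.39e-07) and fell by 0.33 in se-1 (SE 0.08, limma adjusted p = 0.0073) on the log2 scale.

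The purple acid phosphatases release phosphate from organic compounds inside and outside the cell. PAP17 (AT3G17790), the most strongly changed of the 4 in both mutants, averaged 78.0 ± 2.38 FPKM in cyp71-3, 70.7 ± 3.70 FPKM in se-1 and 46.7 ± 1.15 FPKM in Col-0, with log2 fold changes of 0.73 and 0.59 against Col-0 (limma adjusted p = 8.87e-08 and 9.81e-07). Its call between the mutants (0.14, limma adjusted p = 0.0167) was lost without cyp71-3 replicate 2 or se-1 replicate 1 or 2 (adjusted p = 0.07, 0.056 and 0.0509). PAP17 shares 122 bases with AT3G17800 on the opposite strand, which was lower in each mutant, at 102, 104 and 96.9 FPKM in cyp71-3 against 246, 236 and 241 FPKM in Col-0. PAP12 (AT2G27190) averaged 37.4 ± 1.22 FPKM in cyp71-3, 26.2 ± 0.69 FPKM in se-1 and 22.9 ± 0.76 FPKM in Col-0. PAP10 (AT2G16430), a root-surface phosphatase, was called higher in cyp71-3 (0.32 ± 0.04, limma adjusted p = 6.13e-05). PAP26 (AT5G34850), a vacuolar and secreted form, was at 73.3 ± 2.69 FPKM in cyp71-3, 76.1 ± 4.17 FPKM in se-1 and 68.0 ± 3.04 FPKM in Col-0. PAP26 was called in se-1 (0.16, limma adjusted p = 0.0191), and without se-1 replicate 1 or Col-0 replicate 1 it was not (adjusted p = 0.062 and 0.0789). In cyp71-3 PAP26 was not called (0.11, limma adjusted p = 0.0802), but it was without se-1 replicate 1 or Col-0 replicate 2 (adjusted p = 0.0446 and 0.0486).

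RNS1 (AT2G02990), a secreted ribonuclease that frees phosphate from RNA, was at 2.17, 3.31 and 2.33 FPKM in cyp71-3, at 3.42, 3.35 and 3.52 FPKM in se-1 and at 1.08, 1.38 and 1.28 FPKM in Col-0. Both mutants exceeded Col-0 in every library. The log2 fold change was 0.67 ± 0.12 in cyp71-3 (limma adjusted p = 0.000614) and 0.98 ± 0.12 in se-1 (limma adjusted p = 5.59e-05). RNS1 and SPX2 were also called lower in cyp71-3 than in se-1 (limma adjusted p = 0.0469 and 0.04), and those calls did not survive most omissions of a single library. The adjusted p of RNS1 was 0.169 without cyp71-3 replicate 1, 0.139 without cyp71-3 replicate 3, 0.0867, 0.0815 and 0.104 without se-1 replicates 1, 2 and 3, and 0.053 and 0.0581 without Col-0 replicates 2 and 3. For SPX2 it was 0.0562, 0.0814 and 0.115 without cyp71-3 replicates 1, 2 and 3, 0.064 and 0.133 without se-1 replicates 1 and 3, and 0.0538, 0.0523 and 0.0544 without Col-0 replicates 1, 2 and 3.

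P1BS, the element that PHR1 binds, was searched as GNATATNC, a pattern that reads the same on both strands, in the bases upstream of each annotated gene start in the RefSeq TAIR10.1 genome. Within 300 bases, 10 of the 38 phosphate genes held it (26.3%), beside 6.44% of the 32538 genes with coordinates. Within 1000 bases it was in 24 of the 38 (63.2%), beside 20.1% of all. The 300-base share was not particular to the 38. Of the 55 other phosphate genes described further below, 15 (27.3%) held it within 300 bases and 21 (38.2%) within 1000 bases. Those 55 did not rise as a group in cyp71-3, with a median log2 fold change of -0.04 among the 41 tested. Of the 10 genes higher in cyp71-3 by at least 0.8, 5 held it within 300 bases and 8 within 1000 bases, and MGD3 and PHO1;H1 held none. Of all 1071 genes with coordinates that were higher in cyp71-3 by that much, 8.4% held it within 300 bases and 22.1% within 1000 bases. Of the 1082 lower ones, 7.49% held it within 300 bases and 22.6% within 1000 bases. These matches are letters in a window and do not show that a factor binds there.

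The windows of PS2, AT4 and SPX3 are shown because these genes had the largest log2 fold changes in cyp71-3 among those with the motif, which is set in capitals. The motif began 217 bases before the start of PS2, 26 bases before that of AT4, and 213 and 90 bases before that of SPX3.
PS2 (chr1:27466349-27466648, minus strand): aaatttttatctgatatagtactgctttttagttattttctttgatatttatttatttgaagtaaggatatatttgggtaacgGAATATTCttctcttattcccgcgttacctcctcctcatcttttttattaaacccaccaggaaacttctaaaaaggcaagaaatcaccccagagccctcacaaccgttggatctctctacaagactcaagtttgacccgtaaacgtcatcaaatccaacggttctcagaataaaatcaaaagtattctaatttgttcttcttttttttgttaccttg
AT4 (chr5:894282-894581, plus strand): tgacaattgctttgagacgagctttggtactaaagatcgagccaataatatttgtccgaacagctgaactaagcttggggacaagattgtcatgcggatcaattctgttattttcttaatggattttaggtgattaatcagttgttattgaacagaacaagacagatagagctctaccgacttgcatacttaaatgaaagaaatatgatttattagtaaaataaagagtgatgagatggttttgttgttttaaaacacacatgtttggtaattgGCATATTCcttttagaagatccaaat
SPX3 (chr2:18606110-18606409, plus strand): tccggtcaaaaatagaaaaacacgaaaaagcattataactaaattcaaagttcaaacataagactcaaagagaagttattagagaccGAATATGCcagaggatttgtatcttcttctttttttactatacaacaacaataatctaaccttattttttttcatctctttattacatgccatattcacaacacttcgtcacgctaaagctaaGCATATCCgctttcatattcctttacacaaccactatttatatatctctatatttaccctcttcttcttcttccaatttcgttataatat

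Of the 31 tested genes, the 8 with the motif within 300 bases had a median log2 fold change in cyp71-3 against Col-0 of 1.04, with 7 called higher and 0 lower by limma, the lowest being 0.09 in NLA. The 23 without it had a median of 0.36, with 15 called higher and 6 lower. In se-1 the same 8 genes had a median of 0.09, with 3 called higher and 3 lower, and the 23 without the motif a median of 0.01, with 9 called higher and 6 lower. Among all genes tested, 30.6% were called higher and 32.7% lower in cyp71-3, and 25.1% higher and 25.1% lower in se-1. SPX3, which passed the filter only through its cyp71-3 libraries, is among the 8. With 1000 bases the 18 genes with the motif had a median in cyp71-3 of 0.71, with 11 called higher and 4 lower, and the 13 without it a median of 0.56, with 11 called higher and 2 lower, so the separation depended on the window.

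**Figure D3:**
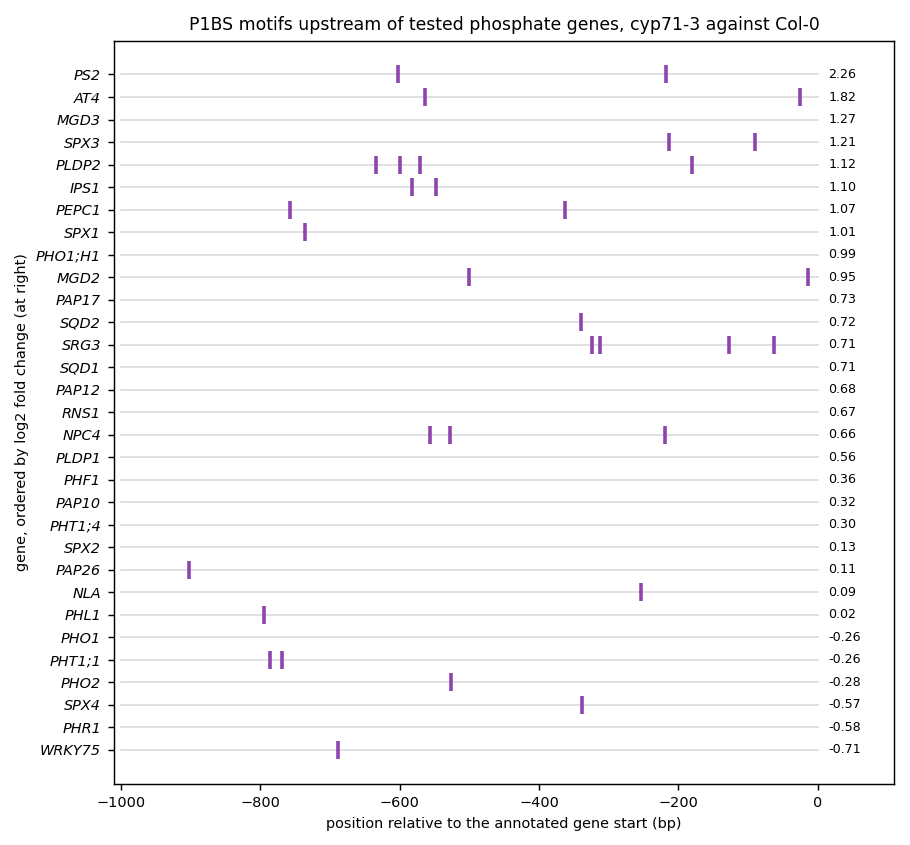
Positions of P1BS matches (marks) in the 1000 bases before the annotated start of the 31 tested phosphate genes, in base pairs, ordered from top to bottom by the log2 fold change in cyp71-3 against Col-0, which is printed at the right. Matches lie within 300 bases in PS2, AT4, SPX3, PLDP2, MGD2, SRG3, NPC4 and NLA, and 13 genes, among them MGD3 and PHO1;H1, have no match.

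Other genes of phosphate transport, signalling and lipid metabolism were listed beside the 38. Of these 55 genes, 41 were tested, and 10 were called higher, 15 lower and 16 not in cyp71-3 against Col-0, with a median log2 fold change of -0.04, beside 30.6% higher and 32.7% lower of all genes tested. In se-1 against Col-0, 12 were called higher, 15 lower and 14 not, beside 25.1% higher and 25.1% lower of all genes tested. Between the mutants, 11 were higher in cyp71-3, 17 lower and 13 not called, beside 30% higher and 32.2% lower of all genes tested.

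In cyp71-3 the largest rises among them were in GDPD6, another glycerophosphodiester phosphodiesterase, and PHO1;H10, a PHO1 homologue. GDPD6 was at 7.12, 6.62 and 5.82 FPKM in cyp71-3, at 2.39, 1.51 and 1.59 FPKM in se-1 and at 1.26, 0.750 and 1.14 FPKM in Col-0, a log2 fold change of 1.88 ± 0.14 in cyp71-3 (limma adjusted p = 5.07e-07). PHO1;H10 was at 9.05, 9.34 and 9.70 FPKM in cyp71-3, at 2.06, 1.65 and 1.71 FPKM in se-1 and at 3.61, 2.59 and 2.91 FPKM in Col-0, with log2 fold changes of 1.37 ± 0.10 in cyp71-3 and -0.52 ± 0.10 in se-1 (limma adjusted p = 5.31e-07 and 0.00156). The largest falls were in plastid phosphate transporters. PHT2;1 averaged 162 ± 1.28 FPKM in cyp71-3, 205 ± 2.69 FPKM in se-1 and 277 ± 2.04 FPKM in Col-0, and PHT4;5 averaged 31.9 ± 1.22 FPKM in cyp71-3, 37.6 ± 2.64 FPKM in se-1 and 55.0 ± 0.68 FPKM in Col-0.

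MIR827 passed the filter only through se-1 replicates 2 and 3, so its call in se-1 is not read as a rise. GDPD2, a glycerophosphodiester phosphodiesterase, had the largest called rise in se-1 among the others. It was at 69.8, 69.9 and 75.9 FPKM in se-1 and at 21.2, 20.8 and 20.7 FPKM in cyp71-3, against 15.1, 17.6 and 15.7 FPKM in Col-0. Its log2 fold change was 2.09 ± 0.06 in se-1 (limma adjusted p = 6.13e-10), and cyp71-3 lay below se-1 by -1.73 ± 0.06 (limma adjusted p = 7.45e-10). The largest falls in se-1 were in ALMT1, a malate channel of the root tip, at 2.08 ± 0.38 FPKM in se-1 and 4.91 ± 0.63 FPKM in Col-0, and in DGD1, the main digalactosyldiacylglycerol synthase, at 35.4 ± 2.62 FPKM in se-1 and 60 ± 0.25 FPKM in Col-0.

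**Figure D4:**
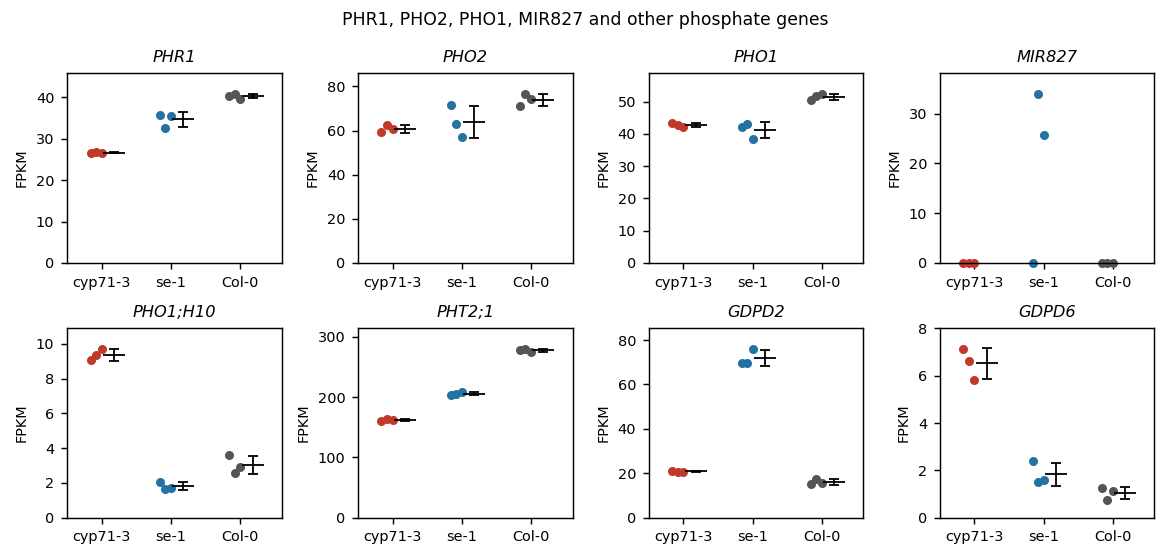
FPKM in each library (points) of PHR1, PHO2, PHO1, MIR827, PHO1;H10, PHT2;1, GDPD2 and GDPD6 in cyp71-3, se-1 and Col-0 from left to right, with the mean and SD of 3 libraries beside them, except for MIR827, which is listed at 0 in 7 of the 9 libraries. PHR1, PHO1 and PHT2;1 are highest in Col-0, GDPD2 is highest in se-1, and GDPD6 and PHO1;H10 are highest in cyp71-3.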

How the data were processed

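Each library of whole seedlings has a deposited list of FPKM values. TRIzol extraction and bead capture of mRNA are given per the labels' protocols. The submitters' processing notes name the TAIR10 build, STAR 2.7.2b, Trim Galore 0.6.7, Cuffdiff and Cuffnorm. Annotation, strandedness and scaling between libraries are not stated there. FPKM divides by length and library total, so abundant genes shift others, and fragments of similar or overlapping genes may be divided between them. Small RNA sequencing and the allele cyp71-2, both named in the design text, were not used here.

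FPKM are not counts, and whole fragments were not recovered, so no count model was run. limma 3.58.1 in R 4.3.3 was fitted to log2(FPKM + 1) of 19180 genes with a mean FPKM of at least 1. The fit had 3 genotypes, 9 libraries, an intensity trend and 6 residual degrees of freedom. It was also tried on simulated data with independent normal scatter, which cannot show how well it suits these FPKM values. Two-sided p-values were adjusted by Benjamini-Hochberg over all genes tested. Genes called with an absolute log2 fold change of at least 0.8, and PHR1, PHO2, NLA and PHO1, are given per library. Of the other phosphate genes, the 2 largest called rises and falls per comparison are named. Locus identifiers matched RefSeq TAIR10.1 for 32538 of 32823 genes. The members and lists were chosen with earlier results of these data known. The alternatives changed the pseudocount, the filter, the scaling, the variance model, the weight of libraries, the replicate block, the genotypes in the fit, the fold-change threshold and the libraries included. Python 3.11.15 with numpy 2.4.6, pandas 2.3.3 and matplotlib 3.10.9 served for tables and plots.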

Additional observations from a re-analysis of the deposited data

How the results depend on the processing

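Counts of called phosphate genes changed by over 1.5 times under 1 planned setting and without 2 libraries. Requiring a log2 fold change of at least 0.8 left 10 higher and 0 lower in cyp71-3 against Col-0, 3 and 1 in se-1 against Col-0, and 8 and 0 in cyp71-3 against se-1, because it asks for larger changes. Leaving out each library in turn gave 20 to 23 higher and 6 to 6 lower, 10 to 12 higher and 7 to 9 lower, and 16 to 17 higher and 4 to 6 lower in the 3 comparisons. A replicate block gave 22 and 6, 12 and 9, and 17 and 6. The labels' replicate numbers gave no sign of pairing. Same-numbered libraries of different genotypes correlated at -0.137 to 0.043 in their deviations from genotype means over 9 pairs, and 6 of 18 best matches had the same number. With 3 libraries per genotype these values cannot show that pairing was absent. Among the phosphate genes named, no direction reversed where the gene was called in the main fit or in the alternative. A change of sign in a gene called in neither was not counted. With a minimum mean of 5 FPKM, 25 of the genes were tested, and 17 were higher and 5 lower in cyp71-3 against Col-0. Depth is known only as a ratio between libraries, so no counting error can be given for PHT1;2 and the other low transporters. The MIR827 call in se-1 was lost without se-1 replicate 2 or 3 (adjusted p = 0.0732 and 0.0729), and with robust variances (0.0852). Quantile normalization called PAP26 in cyp71-3 (adjusted p = 0.00794), PAP10 in se-1 (0.032) and PHO1 between the mutants (0.0296), and lost SPX2 and SRG3 there (0.281 and 0.338). It also moved PHT1;1 and PHO1 in cyp71-3 to -0.17 each on the log2 scale, both still called. The cause was not tested.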
